A study of Homo sapiens with 8 samples.

Results

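The mitochondrial ribosomal proteins are the nuclear-encoded protein subunits of the ribosome that works inside mitochondria. They were taken as every gene of the translation efficiency (TE) table whose symbol begins with MRPL or MRPS followed by a digit, which gave 75 of 11244 genes. By the structure of the ribosome, 49 belong to its large subunit and 25 to its small subunit. MRPS30 and MRPS18A count as large-subunit proteins despite their symbols. MRPS36, now regarded as a subunit of the alpha-ketoglutarate dehydrogenase complex, was kept as the remaining member and placed in neither subunit. Of the known family, MRPL30, MRPL53 and MRPS17 were outside the TE table and were not analysed in RPF or TE. All 75 members passed the filter on low values and were tested in every comparison.

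The libraries came from lysates of cells labelled HepG2, a human liver cancer line, that were either METTL5-WT or METTL5-KO. METTL5 methylates an adenosine of 18S ribosomal RNA, and the KO was made by CRISPR/Cas9 with guide pairs placed to cut out exons, which the labels and the study's methods number differently. All cells, of either genotype, had been given cycloheximide at 100 µg/mL for 7 min to hold ribosomes on the message. From each of 2 METTL5-WT and 2 METTL5-KO lysates, 1 input RNA library and 1 library of ribosome-protected fragments (RPF, from monosomes after MNase digestion) were made, 8 in all. Per the study's methods the lines of both genotypes are clones derived from single cells, and which clone supplied which lysate is not stated, so a difference between clones and an effect of METTL5 cannot be told apart. P-values measure the spread between these lysates, which may be technical.

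The deposited files gave input libraries of 10710226 to 15307257 counts. RPF depth differed with genotype, at 3970779 and 4592443 reads in METTL5-WT against 8626705 and 9255921 in METTL5-KO. METTL5 itself had 490 and 542 input counts in METTL5-WT against 208 and 151 in METTL5-KO, and 158 and 226 RPF reads in METTL5-WT against 41 and 21 in METTL5-KO. The cell line label was checked against liver genes. ALB, AFP, APOA1, APOB, TTR, SERPINA1, FGB and TF, which define hepatocyte-like cells, had 0 to 9 input counts in every library, so the markers of the labelled cell type were absent. The libraries are therefore described by their labels only.

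Mitochondrial ribosomes translate the few proteins that mitochondrial DNA encodes, all of them parts of the oxidative phosphorylation machinery. Their own proteins are made by cytosolic ribosomes and imported. Many descend from bacterial ribosomal proteins, and 44 members carry the family name of a bacterial counterpart. The rest (30 members besides MRPS36) are named as mitochondria-specific. Among them MRPS18A and MRPS18B are paralogues of MRPS18C, which has a counterpart. In contrast to the cytosolic ribosomal proteins, their messages are not known for a terminal oligopyrimidine (TOP) start. In these data 4 of 75 members (5.33%) had a canonical transcript that began with C and 4 more pyrimidines, against 54 of 71 cytosolic ribosomal proteins (76.1%) and 5.70% of all genes tested. At the start codon, 71 members (94.7%) had a purine 3 bases before the ATG and 50 (66.7%) also had a G just after it, against 87.3% and 47.4% of all genes tested.

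The start contexts of 6 of the 7 members with a TE call are shown because ribosomes begin there, and that of MRPL15 is not shown. Each run holds the 6 bases before the ATG, the ATG in capitals and the base after it, read from canonical transcripts of GENCODE release 44.
MRPS33: caagaaATGt
MRPS15: gtcaccATGc
MRPL39: gctgctATGg
MRPL42: aacaccATGg
MRPL17: ggaaacATGc
MRPS22: ataatcATGg
All of these have a purine 3 bases before the ATG, while MRPS33, MRPS15 and MRPL17 lack the G after it.

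Promoters of nuclear genes for mitochondrial proteins often carry sites of NRF1, ETS-family factors and YY1. RefSeq promoter windows (GRCh38.p14, 250 bases before to 50 after the start) were found for 66 members. The NRF1 core GCATGCGC, searched on both strands, was in 6 of them (9.09%), against 5.68% of the TE table's genes and 3.27% of all promoters. The ETS core CCGGAAG was in 27 (40.9%), against 20.3% and 10.7%, and the YY1 core ATGGCGG in 24 (36.4%), against 11.2% and 5.72%. At least 1 of these was found in 45 promoters (68.2%), against 32.3% of the TE table's genes and 17.4% of all promoters. No core holds another inside it. The 100 bases upstream of the start follow, in the gene's direction, for MRPL17 and MRPS15, which had the largest RPF rises, and for MRPL57, which had the largest fall.
MRPL17, chr11:6683341-6683440, minus strand: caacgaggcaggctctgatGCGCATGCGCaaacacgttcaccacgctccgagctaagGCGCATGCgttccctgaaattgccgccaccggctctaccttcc
MRPS15, chr1:36464385-36464484, minus strand: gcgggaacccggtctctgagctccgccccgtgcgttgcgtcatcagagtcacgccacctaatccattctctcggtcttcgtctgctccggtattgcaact
MRPL57, chr13:21176558-21176657, plus strand: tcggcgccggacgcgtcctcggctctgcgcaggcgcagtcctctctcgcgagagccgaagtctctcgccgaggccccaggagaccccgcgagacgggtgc
Capitals mark matches to any of these cores. MRPL17 had 3 NRF1 matches, of which 2 are the opposite strands of 1 overlapping stretch, and none of the cores was in the stretches of MRPS15 and MRPL57. MRPS15 is among the 24 members with a YY1 core in the wider promoter window, outside the bases shown. A match is a string of letters and no measured binding.

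The members took a larger share of the ribosome footprints in METTL5-KO than in METTL5-WT, and a like share of the transcripts. The members took 0.743% and 0.762% of the RPF reads of the METTL5-WT libraries and 0.834% and 0.831% of those of METTL5-KO. In the input libraries they took 0.661% and 0.654% in METTL5-WT against 0.651% and 0.677% in METTL5-KO. The genotypes were thus apart in RPF and overlapped in input. An exact permutation test on 2 against 2 libraries cannot go below p = 0.333, so no p is attached to these shares.

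The same held gene by gene. RPF was tested with limma on log2(value + 1), where a value is the reads of a gene divided by a size factor of its library. Of the 75 members, 27 rose and 2 fell at a Benjamini-Hochberg adjusted p under 0.05 over all 11240 genes, that is 36.0% and 2.67% of the members. Over all genes tested, 16.2% rose and 13.1% fell. With edgeR on the recovered reads, 28 members rose and 2 fell, against 14.3% and 13.5% of all genes, and all 27 rises of limma were among the 28. The median RPF change of the members was 0.25 (log2), against 0.022 for all genes tested, and 61 of 75 members had a change above 0. With the trend in coding length removed the median was 0.13, with 16 rises and 7 falls, beside 3047 calls over all 11240 genes. Without the variance trend limma called 15 rises and 2 falls, beside 2298 calls over all genes. The members are short, with a median coding length of 594 bases, against 1425 for all genes tested. Over genes with annotation the RPF change fell with coding length (Spearman's rho -0.22), while among the members rho was -0.021. With any single lysate left out, fewer members were called in RPF, and fewer genes over all genes tested. Rises among the members stayed ahead of falls in each of these fits. The RPF libraries of METTL5-KO were the deeper ones, and the part of depth in these counts was not tested.

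Transcript levels moved in both directions. In the input counts, edgeR called 8 members higher and 5 lower, or 10.7% and 6.67%, against 11.8% and 10.6% of 14054 genes tested. The median input change was 0.0052 on the log2(value + 1) scale, against 0.0018 for all genes. The number of input calls depended on single lysates, among the members and over all genes alike. It rose without METTL5-KO replicate 1 and fell without either METTL5-WT replicate. Of the 27 members whose RPF rose, 6 rose in input too, 7 were called in TE, and 15 were called in neither. MRPL17 was the only member called in all of the comparisons. In bulk lysates such as these, a lower level cannot be told apart from fewer cells with the transcript.

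TE is the RPF level relative to the input level, tested as the interaction of genotype and library type over all 8 libraries. Here 7 members rose and 0 fell in limma, and edgeR on recovered reads called the same 7 and no fall. At an unadjusted p under 0.05, 26 of the 75 members passed in each tool, against 2537 (limma) and 2674 (edgeR) of 11240 genes. Background calls were 2.70% higher and 2.08% lower in limma, and 3.13% and 3.68% in edgeR, while the 7 rises are 9.33% of the members. The median TE change of the members was 0.27 (log2), against 0.021 for all genes tested. With any single lysate left out, fewer members were called in TE. Such a fit leaves 1 sample in an arm, so the drop cannot be put down to the members. With METTL5-KO replicate 2 left out, hardly any gene of any kind was called, and the median of the members was 0.28. Without its variance trend limma called 0 members (17 at an unadjusted p under 0.05), and hardly any gene over all genes tested. In 35 members both METTL5-KO lysates had a higher TE than both METTL5-WT lysates, and in 7 both were lower, against 28.2% and 25.0% of all genes.

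**Figure D1:**
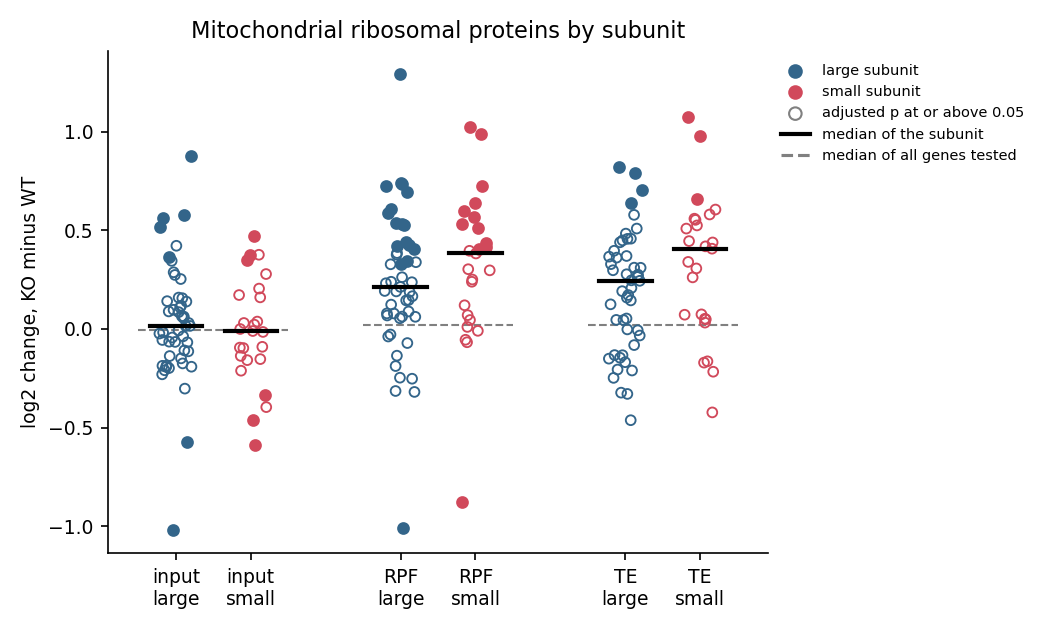
Log2 change between METTL5-KO and METTL5-WT of the 49 large-subunit and 25 small-subunit members in input (edgeR), RPF and TE (limma), 1 point per gene, filled where the adjusted p was under 0.05. Black bars are subunit medians and dashed lines the medians of all genes tested, and MRPS36 is not drawn. In RPF and TE the bars lie above the dashed lines in either subunit, and in input they lie on them.

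The medians of both subunits lay above those of all genes in RPF and TE. In RPF, 16 large-subunit members rose and 1 fell, and 11 small-subunit members rose and 1 fell, with medians of 0.21 and 0.38 (log2). In TE, 4 large-subunit and 3 small-subunit members rose, with medians of 0.24 and 0.41. The difference between the subunits did not separate the genotypes. The median log2 TE of the small subunit minus that of the large subunit was -0.46 and -0.17 in the METTL5-WT lysates against -0.20 and -0.066 in the METTL5-KO lysates, which overlap. The small-subunit median was 0.17 without METTL5-WT replicate 1, 0.27 without METTL5-KO replicate 2 and 0.25 once the trend of TE with GC content was removed, against 0.23 for the large subunit after that removal.

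The members were also grouped by family name, so that MRPS18A and MRPS18B counted as without a bacterial counterpart. Members with a bacterial counterpart had 3 TE rises of 44 and a median of 0.27, and those without had 4 of 30 and a median of 0.26. In RPF, 18 members with a counterpart rose (40.9%) and 0 fell. Of those without, 9 rose (30.0%) and 2 fell, MRPL57 and MRPS26, against 16.2% and 13.1% of all genes. All 5 members whose input fell are without a bacterial counterpart, and 7 of the 8 whose input rose have one, the other being MRPS18A. These are 7 input rises of 44 (15.9%) and 5 falls of 30, against 11.8% and 10.6% of all genes. Input calls also depended on single lysates. The difference between these classes was not tested.

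MRPS15 and MRPS33 of the small subunit had the largest TE rises. MRPS15 (ENSG00000116898, chr1:36455718-36464384, hg38), counterpart of bacterial ribosomal protein S15, had input values of 740 and 709 in METTL5-WT against 761 and 733 in METTL5-KO. Its RPF values were 675 and 692 in METTL5-WT against 1296 and 1492 in METTL5-KO. Footprints about doubled over a flat transcript, and the genotypes did not overlap in RPF. The TE change was 0.98 ± 0.16 (SE; limma adjusted p = 0.00409), a fold of 1.97, and the RPF change was 1.02 ± 0.11 (limma adjusted p = 4.04e-06).

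MRPS33 (ENSG00000090263, chr7:141002610-141015228), a small protein found only in mitochondrial ribosomes, had input values of 163 and 173 in METTL5-WT against 175 and 144 in METTL5-KO. Its RPF values were 178 and 164 against 394 and 294. Both METTL5-KO footprint values lay above METTL5-WT, though the METTL5-WT values rest on 75 and 82 reads. The TE change was 1.07 ± 0.28 (SE; limma adjusted p = 0.0366).

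MRPS22 (ENSG00000175110, chr3:139005806-139357223), a mitochondria-specific protein of the small subunit in which inherited mutations cause oxidative phosphorylation defects, was the third of that subunit. Its RPF values were 793 and 706 in METTL5-WT against 1061 and 1107 in METTL5-KO, and its input values were 405 and 390 against 390 and 341. Its TE rose by 0.66 ± 0.18 (SE; limma adjusted p = 0.0415).

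In the large subunit, MRPL17 was the member whose transcript, footprints and TE all rose. MRPL17 (ENSG00000158042, chr11:6680385-6683340) is the counterpart of bacterial L17, a protein beside the exit tunnel. Its input values were 839 and 791 in METTL5-WT against 1140 and 1320 in METTL5-KO, and its RPF values were 1003 and 1025 against 2358 and 2629. It had the largest RPF change of the members, 1.30 ± 0.11 (SE; limma adjusted p = 1.98e-07), or 2.45-fold. The input change was 0.58 ± 0.12 (SE; edgeR adjusted p = 0.000963) and the TE change 0.71 ± 0.15 (SE; limma adjusted p = 0.0165). Input, RPF and TE each separated the genotypes.

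MRPL39 (ENSG00000154719, chr21:25585656-25607517) and MRPL42 (ENSG00000198015, chr12:93467514-93516214) are mitochondria-specific. MRPL39 had RPF values of 841 and 776 in METTL5-WT against 1265 and 1077 in METTL5-KO, over input values of 485 and 561 against 468 and 389. Its TE change was 0.82 ± 0.19 (SE; limma adjusted p = 0.0214). MRPL42 had RPF values of 741 and 682 in METTL5-WT against 1165 and 1210 in METTL5-KO, over input values of 1849 and 1906 against 2059 and 1590. Its TE change was 0.79 ± 0.17 (SE; limma adjusted p = 0.0150). For both, TE rose with no input call. The input of MRPL39 was still lower in both METTL5-KO lysates, a change of -0.30 ± 0.13 (SE; edgeR adjusted p = 0.106), and this enters its TE change. The annotation names 5 pseudogenes after MRPL42, and how reads were split among such copies is uncertain.

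MRPL15 (ENSG00000137547, chr8:54135241-54148514), counterpart of bacterial L15, was the last of the 7. Its RPF values were 1563 and 1995 in METTL5-WT against 2647 and 2664 in METTL5-KO, over input values of 712 and 806 against 769 and 696. The TE change was 0.64 ± 0.17 (SE; limma adjusted p = 0.0424).

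**Figure D2:**
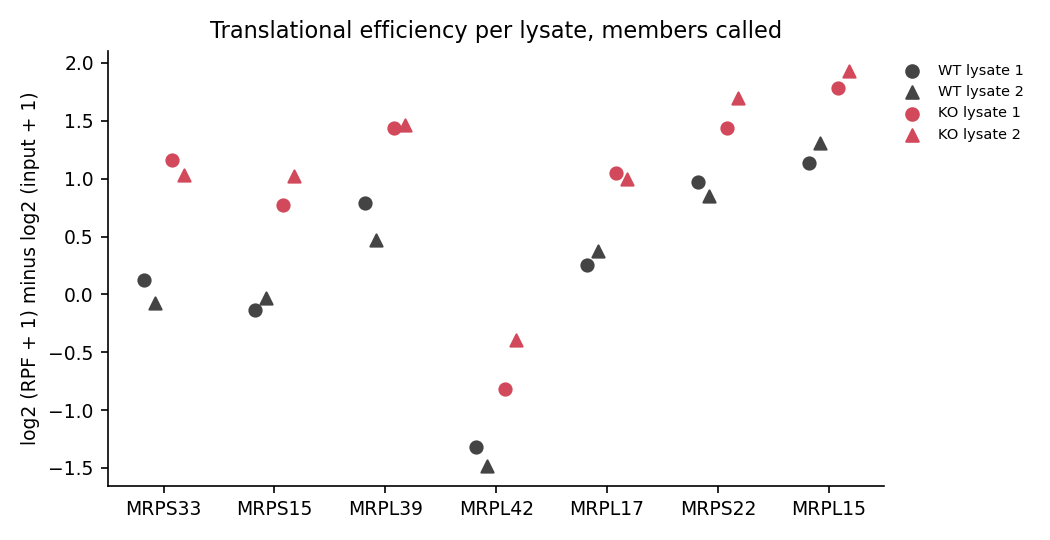
TE per lysate, as log2(RPF + 1) minus log2(input + 1) of the normalised values, for the 7 members whose TE rose, ordered by the size of the change. Each member has 2 METTL5-WT points (dark) and 2 METTL5-KO points (red). The METTL5-KO points lie above the METTL5-WT points in all 7, which the choice of members with a called rise nearly ensures.

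TE changes of the members followed the GC content of their coding sequences. Spearman's rho was -0.64 over the 75 members, and -0.47 over 11220 genes with annotation, a description over genes that share the same libraries. Between GC content and the input change (limma), rho was 0.61 over the members and 0.30 over those genes. For the RPF change it was -0.18 and -0.19, so among the members GC content went more with input than with footprints. The 25 members of lowest GC content, 38.4% to 48.8%, had a median TE change of 0.44 and 5 of the 7 calls. The 25 of highest GC content, 56.3% to 68.1%, had a median of -0.033 and 1 call, MRPL17. Over all genes within these GC ranges the medians were 0.24 and -0.24, so at either end the median of the members lay above that of all genes in the range. In the fit with the GC trend removed, the median of the members was 0.23, against 0.021 for all genes, and 64 of 75 members were above 0. In that fit 4 members were called, all higher, or 5.33% of the members, against 1.86% of all genes. They were MRPL17 (0.84, limma adjusted p = 0.00441) and MRPS15 (0.94, limma adjusted p = 0.00433) with MRPL28 (0.60, limma adjusted p = 0.0192) and MRPL43 (0.82, limma adjusted p = 0.00536). The calls of MRPS33, MRPS22, MRPL39, MRPL42 and MRPL15 were lost, at limma adjusted p from 0.0505 to 0.108, with changes of 0.87, 0.47, 0.57, 0.51 and 0.50 in that fit. With the trend in coding length removed, the median TE change was 0.19. Then 5 members were called, all higher (6.67%), against 2.69% of all genes.

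**Figure D3:**
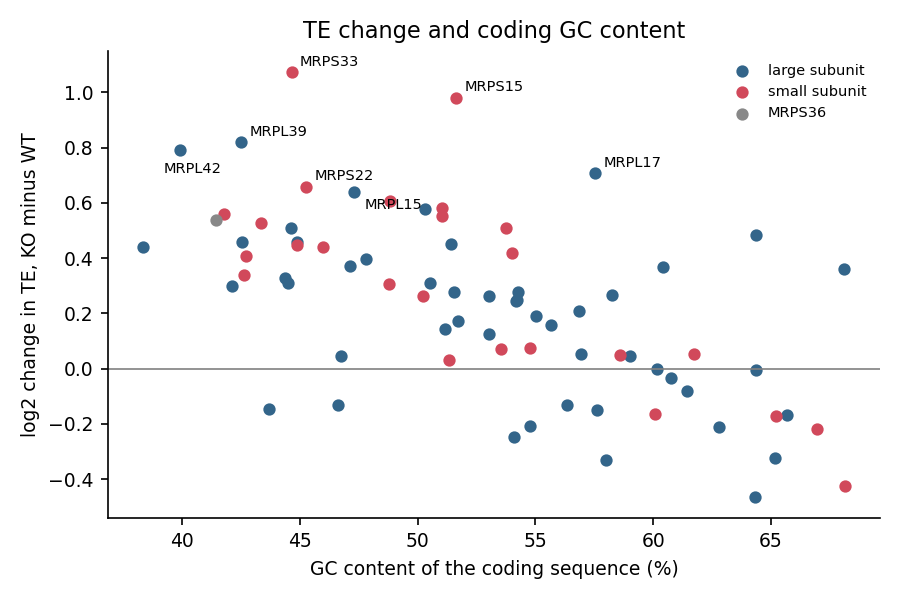
TE change between METTL5-KO and METTL5-WT (log2, limma) against the GC content of the coding sequence for the 75 members, coloured by subunit, with the 7 called members named. Values fall from left to right, with MRPL17 the 1 called member among the 25 of highest GC content.

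Beyond the TE calls, RPF rose in members of known function across the ribosome. MRPS25, a mitochondria-specific protein of the small subunit, had RPF values of 846 and 882 in METTL5-WT against 1348 and 1513 in METTL5-KO, a change of 0.72 ± 0.11 (SE; limma adjusted p = 0.000176). MRPL2, which lies near the peptidyl transferase centre, had 919 and 798 against 1433 and 1345, a change of 0.70 ± 0.17 (SE; limma adjusted p = 0.00474). Its input reads were few, 70 to 147 per library. Of its exon bases, 29.2% also lie in exons of another gene on the same strand. MRPS7, a protein of the small-subunit head, had 544 and 473 against 814 and 726, and rose by 0.60 ± 0.12 (SE; limma adjusted p = 0.00171). MRPL44, a protein with a ribonuclease III-like fold, had 1007 and 1073 against 1472 and 1327, and rose by 0.43 ± 0.12 (SE; limma adjusted p = 0.0122). In each of these the genotypes did not overlap in RPF, and neither input nor TE was called.

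Other members of known role had no call in the main tests of any comparison. MRPL10 of the stalk that recruits translation factors, MRPL11 at its base, MRPL3 near the peptidyl transferase centre and MRPL58, a peptidyl-tRNA hydrolase built into the ribosome, had RPF changes from 0.079 (MRPL11) to 0.19 (MRPL10). MRPL12, also of the stalk, had 3 to 9 RPF reads per library and 69.5% of its exon bases shared, and its RPF change of -0.028 ± 0.34 (SE) shows nothing about its direction. MRPS12, which bears on decoding accuracy, had RPF values of 451 and 383 in METTL5-WT against 400 and 438 in METTL5-KO. MRPS16 had 2050 and 1999 against 2258 and 2002. The genotypes overlapped in RPF for both. The SE of the RPF changes of MRPS12 and MRPS16 was 0.14 and 0.10, so changes of the size seen in MRPS7 would have been large against the error. MRPS6, MRPS28 and MRPS34 likewise had no call, with TE changes of 0.31 ± 0.25, 0.61 ± 0.22 and -0.22 ± 0.22 (SE). MRPS28 was called higher in RPF by edgeR on recovered reads (change 0.36, adjusted p = 0.0448) and not by limma (adjusted p = 0.0694). Of the exon bases of MRPS28, 35.8% are shared with another gene. Of the MRPS18 paralogues, MRPS18A of the large subunit rose in input, while MRPS18B and MRPS18C of the small subunit had no call. MRPS30 had a TE change of 0.14 ± 0.18 and MRPS36 of 0.54 ± 0.35 (SE), neither called.

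Input falls stood where neighbouring genes had fallen too, while the neighbours of some members that rose had barely moved. For each member the median input change of the 20 tested genes on either side was taken. Over the 75 members, Spearman's rho between a member's input change and that median was 0.54, a description of genes measured in the same libraries. For RPF it was 0.13 and for TE -0.25. Whether copy number or another regional difference between the clones enters the input calls was not tested.

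The largest fall was that of MRPL57 (ENSG00000173141, chr13:21176658-21179084), a mitochondria-specific protein of the large subunit. Its input values were 374 and 368 in METTL5-WT against 181 and 188 in METTL5-KO, and its RPF values 121 and 126 against 65.1 and 56.9. The transcript and its footprints were 2.03-fold and 2.02-fold lower, and the TE change was -0.0064. The input change was -1.02 ± 0.14 (SE; edgeR adjusted p = 9.21e-06), and the neighbours had a median of -0.63. The annotation names 5 pseudogenes after MRPL57, and its RPF values rest on 51 to 63 reads.

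MRPS26 (ENSG00000125901, chr20:3046052-3048250), mitochondria-specific and of the small subunit, was the other member whose RPF fell. Its RPF values were 392 and 461 in METTL5-WT against 219 and 243 in METTL5-KO, a change of -0.88 ± 0.15 (SE; limma adjusted p = 0.000465). Input values were 379 and 367 against 254 and 291, a change of -0.46 ± 0.14 (SE; edgeR adjusted p = 0.0165), with a neighbour median of -0.34. Its TE change of -0.42 ± 0.22 (SE) was not called (limma adjusted p = 0.261).

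In 3 members input fell and RPF was not called. MRPS35, of the small subunit, had input values of 1004 and 929 in METTL5-WT against 731 and 570 in METTL5-KO, and RPF values of 532 and 469 against 490 and 473. MRPL51, of the large subunit, had input values of 1762 and 1603 against 1089 and 1195. MRPS27, a pentatricopeptide repeat protein of the small subunit, had 1149 and 1299 against 999 and 960. Their neighbour medians were -0.68, -0.48 and -0.18, and MRPS35 and MRPL51 both lie on chromosome 12.

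MRPL23 (ENSG00000214026, chr11:1947278-1984522), counterpart of bacterial L23 at the rim of the exit tunnel, had the largest input rise. Its input values were 72.9 and 70.3 in METTL5-WT against 92.2 and 172 in METTL5-KO, so METTL5-KO replicate 2 carried most of the change of 0.88 ± 0.24 (SE; edgeR adjusted p = 0.00954). Without that lysate the change was 0.35 (edgeR adjusted p = 0.283). Its RPF values were 770 and 507 against 982 and 1087. Its neighbours had a median of 0.55, and those of MRPL17, also on chromosome 11, a median of 0.44. MRPS18A, MRPL4, MRPS21 and MRPS11 rose in input by 0.56, 0.52, 0.47 and 0.37, with neighbour medians of 0.049, 0.21, 0.028 and 0.0056. MRPL34 and MRPS2 rose by 0.37 and 0.35, with neighbour medians of 0.24 and 0.082. The annotation names 8 pseudogenes after MRPS21.

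**Figure D4:**
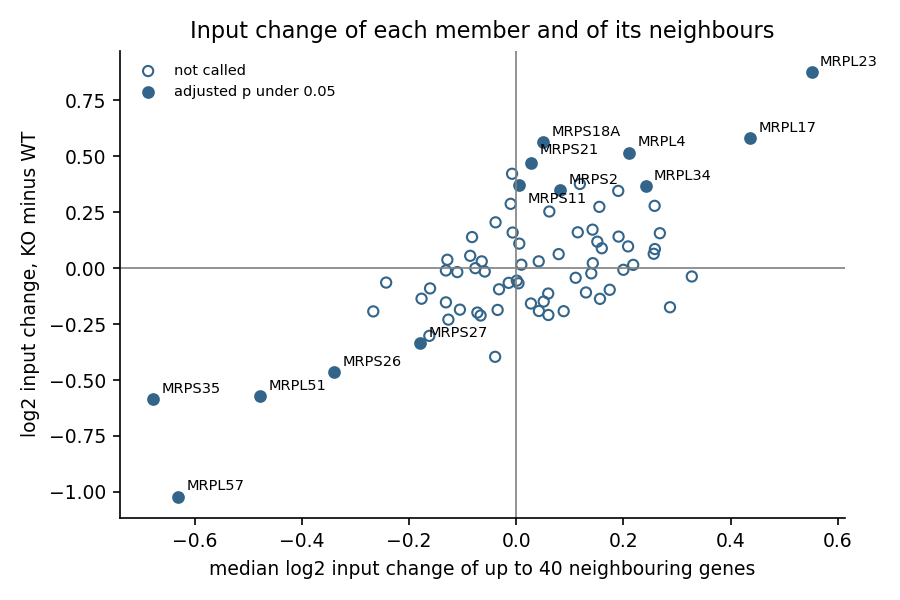
Input change of each of the 75 members (edgeR log2, METTL5-KO minus METTL5-WT) against the median log2 input change of up to 40 tested genes around it on the chromosome (20 on either side), filled and named where the adjusted p was under 0.05. MRPL57, MRPS35, MRPL51 and MRPS26 lie at the lower left and MRPL23 and MRPL17 at the upper right, while MRPS18A and MRPS21 rose with neighbours near 0.

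Baseline TE in METTL5-WT was compared between genes per length, as log2 of the RPF value over coding length against the input value over the length of all exons. The members had a median of 2.39, against 1.78 for all genes tested, which is the 69.8th percentile. Medians were 2.38 in the large and 2.75 in the small subunit, 2.04 in 71 cytosolic ribosomal proteins and 2.85 in 36 genes of respiratory chain complex I. The order of these lists depended on the length used. Without division by length the large subunit had a median of 0.54 and the small subunit 0.19. Within METTL5-WT the middle 50% of the members lay between 1.61 and 3.54. With canonical transcript length in place of all exons, a choice made after the values were seen, the median was 1.52, against 1.14 for all genes, or the 64.3rd percentile. On that length complex I had a median of 1.39, below the members, and the cytosolic ribosomal proteins 0.40, below all genes. Baseline TE per length and TE change were unrelated among the members (Spearman's rho 0.020, n = 75).

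Several extremes of the baseline had few reads or shared exon bases with another gene, and whether this set their values was not tested. MRPS24 was highest at 8.35 and MRPL38 next at 7.44, followed by MRPL33 at 6.27 and MRPL46 at 6.24. MRPS24, MRPL38 and MRPL46 had few input reads, 18 to 90 per library, beside 162 to 2386 RPF reads. Of their exon bases, 23.3%, 41.1% and 11.3% also lie in exons of another gene on the same strand, which for MRPS24 is its read-through with URGCP. MRPL33, the shortest coding sequence of the members, had 2149 and 2475 RPF reads in METTL5-WT, the most of any member. It shares 21.15% of its exon bases with BABAM2. MRPL12 was lowest at -3.75, with 3 and 7 RPF reads in METTL5-WT, 9 and 8 in METTL5-KO, and 69.5% of its exon bases shared. Next came MRPL3 at -0.15, MRPS34 at -0.047 and MRPS35 at 0.045, with no shared exon bases. Their counts were 224 to 895 RPF reads beside 1135 to 4860 input reads in the 8 libraries.

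**Figure D5:**
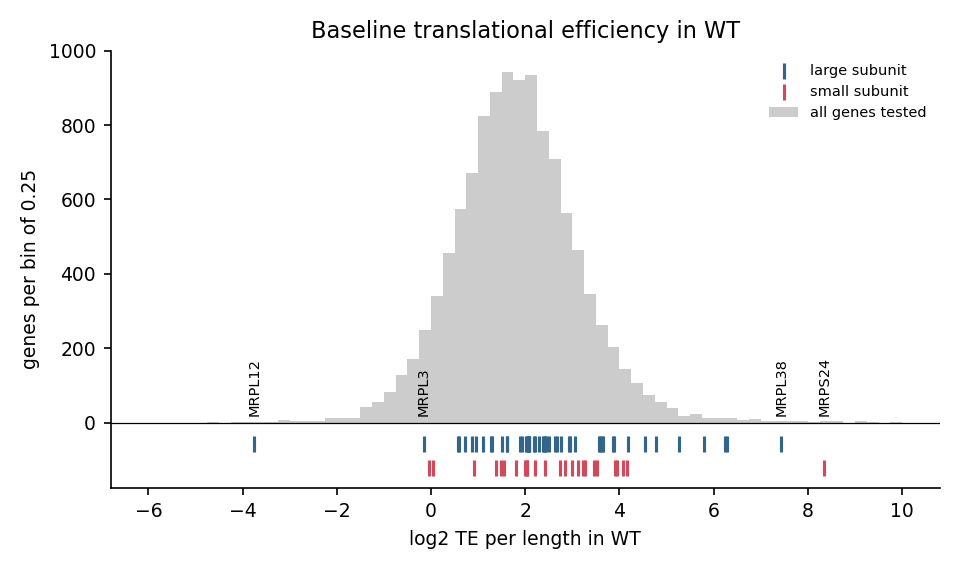
Baseline TE per length in METTL5-WT (log2) for all genes tested (bars, genes per bin of 0.25) and for each large-subunit and small-subunit member (ticks under the bars), with MRPS36 not drawn. Most members lie between 1 and 4, MRPL12 stands far to the left at -3.75, and MRPS24 and MRPL38 far to the right.

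Genes that work with the mitochondrial ribosome, and other families, are given beside the members. Of 5 further mitoribosome proteins without MRP symbols, DAP3 (RPF change 0.62, limma adjusted p = 0.000344) and CHCHD1 (0.51, limma adjusted p = 0.0109), both of the small subunit, rose in RPF and none was called in input or TE. Of 24 assembly factors in the TE table, 0 rose and 2 fell in RPF, and 0 were called in TE, with 3 at an unadjusted p under 0.05. Of 17 mitochondrial translation factors, 2 rose and 2 fell in RPF and 0 were called in TE by limma, with 5 at an unadjusted p under 0.05, while edgeR called 1 lower. Over all 11240 genes, 2537 had an unadjusted p under 0.05 in TE in limma. The cytosolic ribosomal proteins had 22 RPF rises and 5 falls of 71 and a median TE change of -0.019, with 3 rises and 1 fall in TE. Complex I had 16 RPF rises and 0 falls of 36, and 6 TE rises with a median of 0.17. The shares that rose in RPF and in TE were 44.4% and 16.7% in complex I and 31.0% and 4.23% in the cytosolic ribosomal proteins, beside 36.0% and 9.33% of the members and 16.2% and 2.70% of all genes. Differences between lists were not tested.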

How the data were processed

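Reads of the 8 libraries had been processed by the authors, who trimmed adapters with BBDuk and aligned reads to hg38 with STAR 2.7.3a. The deposited raw counts of the input libraries came from featureCounts (v1.6.0 per the labels, v2.0.1 per the file header). For RPF the authors kept footprint-sized reads, removed ribosomal RNA and used the RiboToolkit server. The TE table's deposited signal values are named RPKM by the authors but are whole reads times 1 constant per library (100% whole within 0.01 read), with input values equal to the counts, so they are not divided by gene length, and the reads were recovered from them. Per the file headers the same table holds the log2 fold change in TE that the authors computed and its p-value, raw and adjusted, none of which was used.

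Genotypes were compared in input by the quasi-likelihood test of edgeR 4.0.16 after filterByExpr and TMM, for 14054 genes. For RPF and TE, limma 3.58.1 with a variance trend was fitted to log2(value + 1) of 11240 genes whose mean reached 1 in input and in RPF alike, as planned when the unit was thought to be RPKM. That scale understates changes of low genes. Recovered reads were also tested with edgeR and with DESeq2 1.42.0 (R 4.3.3, Python 3.11.15). Adjustment was Benjamini-Hochberg over all genes, two-sided, called under 0.05. Scripts were tested on simulated data. GC content, coding length and start contexts came from canonical transcripts of GENCODE release 44, found for 99.8% of the TE table. Exons shared between genes were read from the exon positions deposited with the input counts, not from that release. The strand setting of the RPF counting is not given in the sources used here.

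Named members were, in input, RPF and TE, up to 6 rises and 6 falls, by size, of called members whose genotypes did not overlap, the 4 highest and the 4 lowest in baseline TE, and members of known role. MRPL15, MRPL28 and MRPL43 were named after their values were seen. The members and lists were chosen with earlier results of these data known. Each input library shares its lysate with the RPF library of that genotype and number, which pairs them, with deviations correlating at -0.016 in METTL5-WT and 0.053 in METTL5-KO. Counting error and the spread of 2 lysates per group set the precision.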

Additional observations from a re-analysis of the deposited data

How the results depend on the processing

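Calls depended on single lysates. Input calls, 13 in edgeR, were 2 without METTL5-WT replicate 1, 4 without METTL5-WT replicate 2 and 33 without METTL5-KO replicate 1, a range of 2 to 33. RPF calls, 29 in limma, were 18 without METTL5-KO replicate 1, 19 without METTL5-WT replicate 2 and otherwise 20 to 23, with rises ahead of falls in each. TE calls, 7 in limma, were 0 without METTL5-KO replicate 2 (18 members at an unadjusted p under 0.05, and 4 of all genes called), 1 without METTL5-WT replicate 2, 2 without METTL5-KO replicate 1 and 3 without METTL5-WT replicate 1. Leaving out a lysate left 1 sample in its arm, which was assumed to vary like the others. Over the same fits the median change was 0.23 to 0.31 in RPF and 0.19 to 0.28 in TE for all members, 0.15 to 0.29 in TE for the large subunit and 0.17 to 0.44 for the small subunit.

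Without the variance trend, limma called 17 members in RPF, against 2298 of 11240 genes. In TE it called 0 members (17 at an unadjusted p under 0.05), with 1 call over all genes. DESeq2 on recovered reads called 9 members in TE, against 838 of 11240 genes. Asking for a 2-fold change and an unadjusted p under 0.05 left 1 member in input, 3 in RPF and 1 in TE. The share over all genes was not counted under that rule. Removing the GC trend gave 4 TE calls, against 303 of 11240 genes. It gave a median RPF change of 0.21 and a small-subunit TE median of 0.25. Removing the length trend gave medians of -0.067 in input and 0.13 in RPF. It gave 16 RPF rises beside 7 falls, with 3047 of 11240 genes called. Baseline TE, 2.39, was 0.31 without division by length, 1.52 with canonical transcript length, and 2.41 or 2.42 in 1 METTL5-WT lysate alone. The cause of each shift was not tested.

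With the lysate as a replicate block, 8 members were called in TE, the 7 and MRPL33, and 8 with the GC trend removed as well. The shares over all genes are not given for these blocks. With the replicate number, which only names the lysates across genotypes (correlation 0.039 in input and -0.0021 in RPF), as a replicate block the calls were 15 in input, 30 in RPF and 9 in TE. Over all genes that block gave 3554 calls of 14054 in input and 3513 of 11240 in RPF. In 16 of 18 alternatives the TE call of MRPS15 held, and in 14 that of MRPL42, 13 those of MRPL17 and MRPL39, and 10 those of MRPS33, MRPS22 and MRPL15, with no reversal. MRPL23 lost its input call without METTL5-KO replicate 2. RPF calls held in 130 of 136 checks of 8 named members, and the 6 lost were all of MRPL23.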
